A study of Mus musculus with 6 samples.

Results

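Imprinted genes are expressed mainly from the copy inherited from the mother or from the copy inherited from the father. The 10 described here are Mest, Igf2, H19, Dlk1, Meg3, Peg3, Plagl1, Cdkn1c, Grb10 and Nnat, which were grouped because Mest was higher in ADCY3∆AT mice. They are 10 of 54385 rows of the expression table, and all 10 were among the 18114 genes abundant enough to be tested. The value that chose the set is the Mest level in these same libraries, so Mest is described below without a test.

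RNA was taken from interscapular brown fat, a depot that burns lipid to warm the body, in mice of the C57BL/6N strain (the design text of the series calls the depot inguinal, every sample label interscapular). There were 3 wild-type (wt/wt, WT) libraries and 3 from ADCY3∆AT mice, labelled as Adcy3-AT knockouts. Adcy3 encodes an adenylyl cyclase, which produces the messenger cyclic AMP, and the labels do not say what AT stands for. Both genotypes received chow until 8 weeks of age, then high-fat food for 12 weeks, and were 20 weeks old. Both were also cold-exposed, at 4 °C for 24 h. The labels give neither the sex, nor how the allele was made, nor whether replicates came from different animals. The p-values below therefore reflect only how far these samples vary, and that variation may be technical.

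Library totals ranged from 44826777 to 54933588 estimated counts. The targeted gene followed the labels, since Adcy3 had 651.9 to 727.8 CPM (counts scaled to library size) in WT and 341.9 to 505.6 CPM in ADCY3∆AT. Its log2 fold change of -0.78 passed in DESeq2 (adjusted p = 4.11e-07) but not in edgeR (adjusted p = 0.158) or limma voom (adjusted p = 0.21). A gene that did not pass in edgeR is therefore not shown to be unchanged. A row absent from the annotation, ENSMUSG66666620654, had 477.4 to 628.6 CPM in WT and was listed at 0 in ADCY3∆AT. Its identifier ends in the same digits as that of Adcy3, ENSMUSG00000020654, so it may be the Adcy3-AT product that the knockout labels name, although no label says so. That row was the 1 call of edgeR among 18114 genes (0.00552%), while DESeq2 called 231 of 19270 (1.2%). The 10 brown adipocyte markers were abundant in every library, with summed levels of 19760 to 20030 CPM in WT and 19020 to 19850 CPM in ADCY3∆AT. Single markers could differ, with 3 of the 10 lower and 1 higher without overlap (all genes, 8.78% and 7.73%). Among them Elovl3, at mean levels of 435.1 CPM in WT and 333.5 CPM in ADCY3∆AT, passed in DESeq2 (adjusted p = 0.0322) and not in edgeR (adjusted p = 0.305). Summed over 19 markers, skeletal muscle transcripts were at 874.3 to 1820 CPM in WT and 268.8 to 612.8 CPM in ADCY3∆AT, and 5 of these markers were listed at 0 in at least 1 library. Mb, the only tested marker with overlapping groups, made up 354.1 to 423.5 CPM of the sum in WT and 223.3 to 362.6 CPM in ADCY3∆AT. The sum therefore understates the difference of most markers, whose median log2 fold change was -3.04 (18 tested).

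As background, imprinted genes act on growth before and after birth, and fathers' and mothers' alleles often act in opposite directions. Mest, Igf2, Dlk1, Peg3, Plagl1 and Nnat are expressed from the paternal copy in most tissues, and H19, Meg3, Cdkn1c and, outside the nervous system, Grb10 from the maternal copy. In fat, Mest is known as a marker of adipocyte enlargement on a high-fat diet, Dlk1 is the preadipocyte protein that holds back adipocyte differentiation, and Grb10 is an adaptor that restrains insulin and IGF receptor signalling.

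The start regions of 8 of the 10 genes were found in RefSeq's promoter table for GRCm38.p6, the build of the counts, as 15 windows of 250 bases that end at an annotated start. The Mest window shown first belongs to the gene that the set was built around. Its CG pairs, the dinucleotides that carry the methylation mark of imprinting, are in capitals. It holds 14 of them, and 70.6% of 32851 mouse windows hold fewer. Of the other 2 Mest windows, 1 nearly coincides with it and also holds 14, and 1 at a start farther upstream holds 7. Methylation was not measured here. The Meg3 and Peg3 windows are shown because they were 2 of the 15 that contain TGACGTCA, the palindromic cyclic AMP response element, which is in capitals and was searched on both strands. It begins 57 bases before the Meg3 start and 178 bases before the Peg3 start, and is present in 1.55% of all windows.
Mest, chr6:30737803-30738052, plus strand: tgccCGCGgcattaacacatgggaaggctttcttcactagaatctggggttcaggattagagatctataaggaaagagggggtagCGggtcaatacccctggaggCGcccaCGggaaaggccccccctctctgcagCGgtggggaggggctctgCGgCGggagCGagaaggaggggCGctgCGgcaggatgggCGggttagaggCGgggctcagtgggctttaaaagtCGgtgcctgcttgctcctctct
Meg3, chr12:109540746-109540995, plus strand: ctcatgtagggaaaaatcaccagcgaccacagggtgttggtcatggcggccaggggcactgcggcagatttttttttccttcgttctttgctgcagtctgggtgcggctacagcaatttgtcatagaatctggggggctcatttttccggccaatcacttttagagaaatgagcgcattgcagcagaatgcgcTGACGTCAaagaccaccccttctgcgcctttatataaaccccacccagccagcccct
Peg3, chr7:6730420-6730669, minus strand: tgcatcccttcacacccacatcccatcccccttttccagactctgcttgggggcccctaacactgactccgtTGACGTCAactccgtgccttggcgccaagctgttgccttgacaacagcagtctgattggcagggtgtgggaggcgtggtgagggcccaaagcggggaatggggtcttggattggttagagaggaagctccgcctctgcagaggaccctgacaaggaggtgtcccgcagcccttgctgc
Only the Peg3 window contained GGGGCCCC, a GC-rich word of the type bound by the PLAGL1 zinc finger protein, which 0.889% of all windows hold. No TGACGTCA was found in the windows of Mest, Igf2, Dlk1, Plagl1, Grb10 and Nnat. A match in these letters is a description of the sequence and does not show binding.

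Mest (ENSMUSG00000051855, chromosome 6, 30723547 to 30748465, plus strand, GRCm38) encodes a membrane protein of the alpha/beta hydrolase fold. Its WT levels were 5.74, 4.87 and 4.86 CPM, and its ADCY3∆AT levels were 7.12, 6.95 and 8.20 CPM. All ADCY3∆AT libraries lay above all WT libraries, and replicate 3 was the highest. The means were 5.16 ± 0.51 and 7.42 ± 0.68 CPM (SD, n = 3 each), a ratio of 1.44, and the log2 fold change fitted by edgeR was 0.53. These values rest on 214 to 381 estimated counts per library. With any single library left out, the fold change stayed between 0.45 and 0.61, a range that only describes the libraries in which Mest was chosen for its rise.

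The gene that runs toward Mest from the other side, Copg2, overlaps the last exon of Mest on the opposite strand over 912 of 3945 exonic bases. The sources used here do not say whether counting used strand, so reads from that stretch cannot be assigned to either gene by these data. Copg2, a subunit of the COPI vesicle coat, had 34.2 to 38.7 CPM in WT and 36.5 to 38.2 CPM in ADCY3∆AT, and its log2 fold change was 0.03 ± 0.06 (SE). Cep41, a ciliary protein gene beside Mest, had 2.12 to 2.32 CPM in WT and 2.54 to 2.73 CPM in ADCY3∆AT without overlap (0.28 ± 0.14, edgeR adjusted p = 0.526).

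An intron of Mest carries the microRNA gene Mir335, whose mature forms are shown with the seed, bases 2 to 8, in capitals because Mest is their host.
mmu-miR-335-5p: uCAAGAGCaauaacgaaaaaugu
mmu-miR-335-3p: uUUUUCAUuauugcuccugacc
The Mir335 row was listed at 0 in all 6 libraries, and 3 counts correspond to 0.055 to 0.068 CPM. The kit used makes libraries of long RNA, so the host transcript was measured and the mature microRNAs were not.

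**Figure D1:**
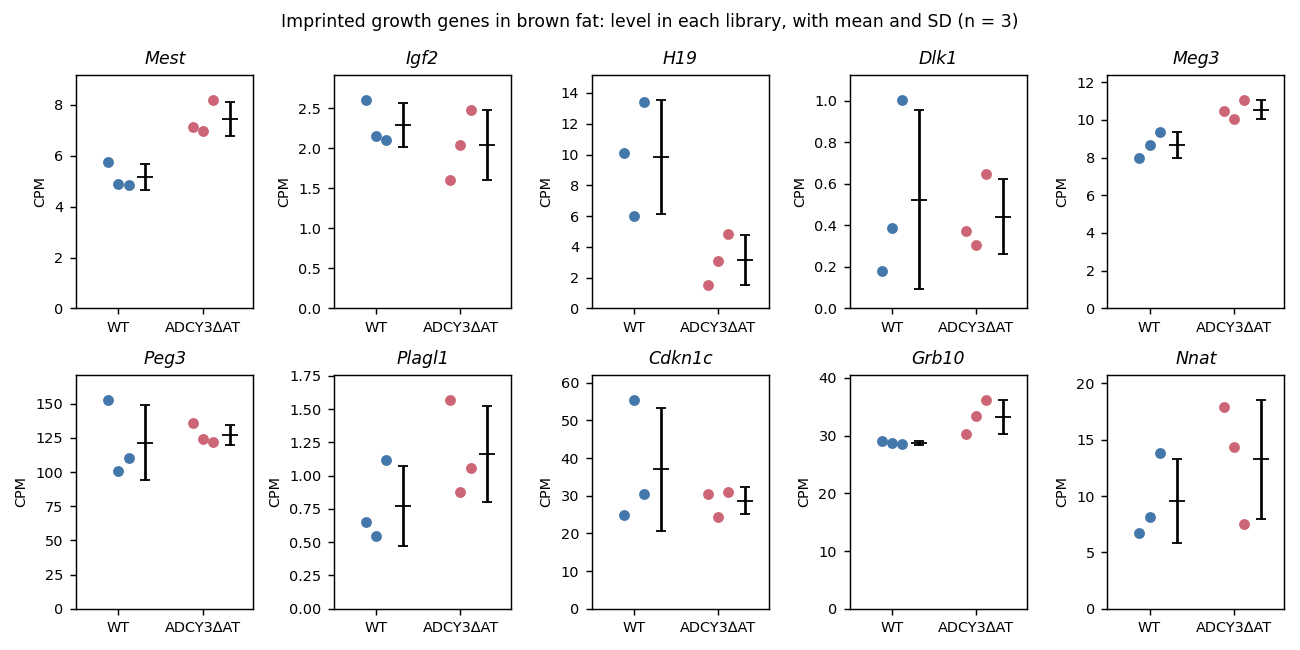
Each panel plots one gene, with CPM on the vertical axis, 1 point per library (3 WT in blue, 3 ADCY3∆AT in red), and the group mean and SD (n = 3) beside the points. Mest, Meg3 and Grb10 lie higher and H19 lower in ADCY3∆AT without overlap, and the other 6 genes overlap.

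Among the other 9 genes, none passed in edgeR over all genes tested, where 0.00552% of genes did. None passed in DESeq2 or limma voom either (DESeq2 called 0.462% of all genes higher), and the edgeR adjusted p-values ran from 0.226 to 0.918. An unadjusted p under 0.05 was reached by 3 of the 9, with 2 higher and 1 lower, against 11% of all genes (5.23% higher). The same 3, Meg3, Grb10 and H19, had groups that did not overlap, as did 16.5% of all genes (7.73% higher). The 9 genes had a median log2 fold change of 0.07, beside 0.0039 over all genes, with 5 positive and 4 negative.

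H19, the maternally expressed noncoding RNA beside Igf2, is on chromosome 7, 142575529 to 142578143, minus strand. It had 10.1, 5.99 and 13.4 CPM in WT and 1.53, 3.07 and 4.84 CPM in ADCY3∆AT. The groups did not overlap, although each spread widely, with means of 9.84 ± 3.73 and 3.15 ± 1.66 CPM (SD, n = 3 each). Its mean was 3.13-fold higher in WT, and the log2 fold change of -1.64 ± 0.40 (SE, 95% interval -2.57 to -0.72) did not pass in edgeR (adjusted p = 0.226) or DESeq2 (0.144). It passed only with no low-count filter (edgeR adjusted p = 0.018), and over the other alternatives the adjusted p ran from 0.0778 to 0.652.

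H19 is abundant in skeletal muscle as well as in embryonic tissue, and its level was set beside the muscle markers library by library. From lowest to highest, ADCY3∆AT replicates 1, 2 and 3 and then WT replicates 2, 1 and 3 had 268.8, 492.3, 612.8, 874.3, 1138 and 1820 CPM of summed muscle markers. Their H19 levels of 1.53, 3.07, 4.84, 5.99, 10.1 and 13.4 CPM followed the same order. Per 1000 CPM of muscle markers, H19 was at 8.89, 6.85 and 7.38 CPM in WT and at 5.70, 6.23 and 7.90 CPM in ADCY3∆AT, and on this measure, chosen after the values were seen, the groups overlapped. Mb alone made up 223.3, 362.6 and 359.2 CPM of the ADCY3∆AT sums. Ckm, a marker whose groups did not overlap, had 66.2, 47.4 and 129.3 CPM in WT and 0, 7.76 and 19.1 CPM in ADCY3∆AT. The overlap of the ratio therefore rests on a sum that was largely Mb in ADCY3∆AT, and does not show that H19 scales with muscle RNA. Of the 18 muscle markers tested, 17 had ADCY3∆AT libraries all below the WT ones, as did 8.78% of all genes. Nctc1, a noncoding transcript of the same chromosomal region known from muscle, had 0.711, 0.321 and 1.88 CPM in WT and 0, 0.041 and 0.301 CPM in ADCY3∆AT, again in the order of the muscle markers (edgeR adjusted p = 0.317). In bulk tissue, fewer cells of a type and less RNA per cell cannot be told apart, and the part of muscle transcripts in the H19 difference was not tested further.

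**Figure D2:**
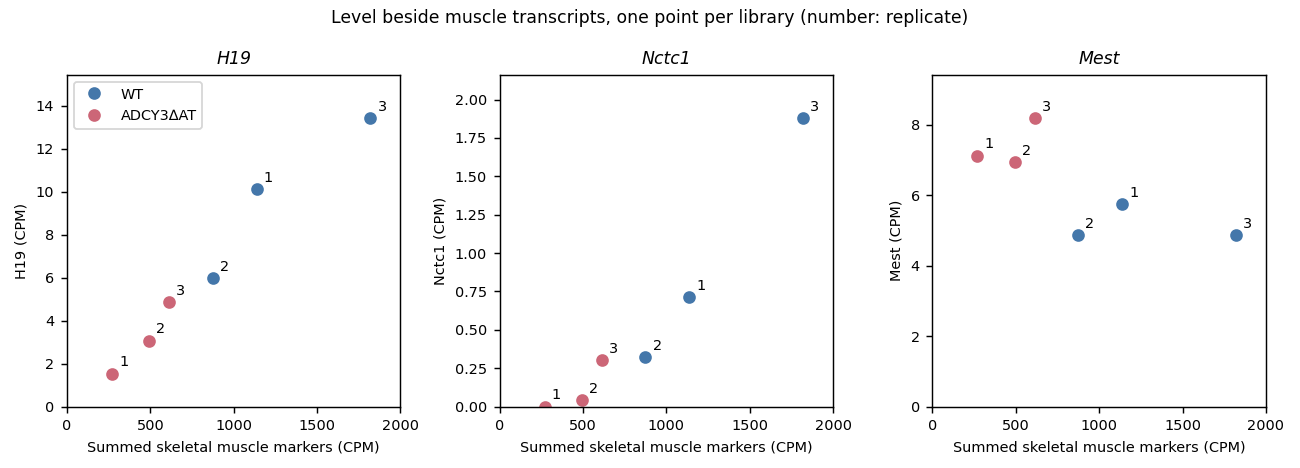
Each panel plots the CPM of one gene against the summed CPM of 19 skeletal muscle markers, with 1 numbered point per library (WT blue, ADCY3∆AT red). H19 and Nctc1 rise in the order of the muscle sum in all 6 libraries, while the highest Mest level, 8.20 CPM, belongs to ADCY3∆AT replicate 3, at 612.8 CPM of muscle markers.

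Igf2, the growth factor that shares enhancers with H19, had overlapping groups. It had 2.61, 2.16 and 2.10 CPM in WT and 1.598, 2.04 and 2.48 CPM in ADCY3∆AT. The log2 fold change was -0.17 ± 0.20 (SE, 95% interval -0.64 to 0.30, edgeR adjusted p = 0.797). Its growth-promoting receptor gene Igf1r had 0.09 ± 0.08, and Igf2r, an imprinted gene for the receptor that clears the growth factor, had 0.08 ± 0.05.

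The 24 genes of the IGF axis, 19 of them tested, held no gene that passed in edgeR or DESeq2, and 0 were higher and 2 lower at an unadjusted p under 0.05, beside 5.23% and 5.78% of all genes. The axis had a median log2 fold change of 0.04. The binding protein gene Igfbp3 had 25.1 ± 4.8 CPM in WT and 18.2 ± 3.2 CPM in ADCY3∆AT (log2 fold change -0.46 ± 0.16, edgeR adjusted p = 0.343). Irs1, the docking protein below the insulin and IGF1 receptors, had 46.0 ± 9.5 and 33.6 ± 6.7 CPM (-0.45 ± 0.17, edgeR adjusted p = 0.395). Igfbp7 had 0.20 ± 0.10. The groups overlapped for all 3 genes.

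Grb10 (chromosome 11, 11930508 to 12038683, minus strand) had 29.1, 28.7 and 28.5 CPM in WT and 30.2, 33.4 and 36.1 CPM in ADCY3∆AT. The coefficient of variation among the WT libraries was 1.06%, and all ADCY3∆AT libraries lay above them. The means were 28.7 ± 0.30 and 33.2 ± 2.9 CPM (SD, n = 3 each), and the log2 fold change of 0.21 ± 0.07 (SE, 95% interval 0.05 to 0.37) did not pass in edgeR (adjusted p = 0.339). The related adaptor gene Grb14, which is not imprinted, had a log2 fold change of 0.08 ± 0.07 (SE).

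Dlk1 and Meg3 lie in 1 imprinted domain on chromosome 12, where Dlk1 is read from the paternal copy and Meg3, Rian and Mirg from the maternal copy. Meg3, a noncoding RNA (109541001 to 109571726, plus strand), had 8.00, 8.67 and 9.37 CPM in WT and 10.5, 10.1 and 11.1 CPM in ADCY3∆AT. No WT library reached the ADCY3∆AT range, with means of 8.68 ± 0.69 and 10.5 ± 0.5 CPM (SD, n = 3 each). The log2 fold change was 0.28 ± 0.09 (SE, 95% interval 0.08 to 0.48, edgeR adjusted p = 0.323).

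Both other maternal RNAs of the domain had positive fold changes too. Rian had 19.7, 19.3 and 21.9 CPM in WT and 22.8, 22.1 and 25.4 CPM in ADCY3∆AT, without overlap (log2 fold change 0.21 ± 0.08, edgeR adjusted p = 0.382). Mirg had 1.52 to 1.91 CPM in WT and 1.79 to 2.59 CPM in ADCY3∆AT, with overlap (0.35 ± 0.20, edgeR adjusted p = 0.561). The 3 RNAs may be parts of 1 long maternal transcript, so they are not independent measurements. Dlk1 itself was near the limit of what could be compared, with 10 to 46 estimated counts per library. Its levels were 0.182, 0.386 and 1.01 CPM in WT and 0.372, 0.305 and 0.646 CPM in ADCY3∆AT, and the wide 95% interval of the log2 fold change, -1.61 to 1.13, leaves its direction unresolved. Rtl1 and Dio3, the other paternal genes of the domain, were at most at 0.045 and 0.091 CPM and were not tested, and Wdr25 beside the domain had a log2 fold change of -0.00046 ± 0.11.

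DLK1 belongs to the family of Notch ligands, so the Notch genes were read beside it. None of the 12 tested passed in edgeR, and 3 were higher and 0 lower at an unadjusted p under 0.05, where 5.23% of all genes were higher and 5.78% lower. The ligand gene Dll4, which guides sprouting vessels, had 18.5 ± 1.5 CPM in WT and 23.8 ± 0.7 CPM in ADCY3∆AT (log2 fold change 0.37 ± 0.07), which passed in DESeq2 (adjusted p = 0.0191) and not in edgeR (adjusted p = 0.158). The receptor Notch3 of vessel wall cells had 49.5 ± 8.3 and 63.6 ± 2.8 CPM (0.36 ± 0.11, edgeR adjusted p = 0.312), and the ligand Jag2 had 28.8 ± 1.9 and 32.4 ± 1.2 CPM (0.17 ± 0.06, edgeR adjusted p = 0.387). The 8 endothelial markers summed to 973.4 to 1041 CPM in WT and 1053 to 1117 CPM in ADCY3∆AT, and their part in these values was not tested.

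Peg3 (chromosome 7, 6703892 to 6730431, minus strand), a large zinc finger protein, was the listed gene with the most counts. It had 152.8, 101 and 110.6 CPM in WT and 135.7, 123.9 and 122.1 CPM in ADCY3∆AT. WT replicate 1 was the highest of all 6 libraries and WT replicate 2 the lowest, and the log2 fold change was 0.07 ± 0.14 (SE, 95% interval -0.25 to 0.39, edgeR adjusted p = 0.894). Without WT replicate 2 it turned to -0.05. Of the neighbours in its domain, the paternal gene Usp29 had 1.00 ± 0.20 and 1.10 ± 0.28 CPM, with overlapping groups. The maternal zinc finger gene Zim1 had 2.06, 1.49 and 1.86 CPM in WT and 2.56, 2.80 and 2.61 CPM in ADCY3∆AT, without overlap (log2 fold change 0.55 ± 0.17, edgeR adjusted p = 0.313).

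Plagl1, a zinc finger transcription factor of chromosome 10 (13060504 to 13131694, plus strand) known to regulate other imprinted genes, was scarce. It had 0.655, 0.545 and 1.116 CPM in WT and 1.57, 0.874 and 1.06 CPM in ADCY3∆AT, from 24 to 72 estimated counts. The groups overlapped, and its log2 fold change of 0.59 ± 0.34 (SE), the highest of the 10, had a 95% interval of -0.19 to 1.38 (edgeR adjusted p = 0.571). Its neighbours Phactr2, Sf3b5 and Ltv1 had log2 fold changes of 0.14 ± 0.08, 0.05 ± 0.07 and -0.14 ± 0.07, and the Ltv1 groups did not overlap (edgeR adjusted p = 0.514).

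Cdkn1c encodes p57, an inhibitor of cyclin-dependent kinases, and lies on chromosome 7 from 143458339 to 143461050 on the minus strand. It had 24.9, 55.4 and 30.5 CPM in WT and 30.4, 24.5 and 31.0 CPM in ADCY3∆AT. WT replicate 2 stood well above the other 5 libraries, which lay within 24.5 to 31.0 CPM. The log2 fold change was -0.36 ± 0.26 (SE, 95% interval -0.97 to 0.24, edgeR adjusted p = 0.652) with that library and 0.05 without it. Kcnq1ot1, the paternal noncoding RNA that silences Cdkn1c on its own chromosome, had 189.7, 234.1 and 218.7 CPM in WT and 191.3, 176.2 and 196.6 CPM in ADCY3∆AT (log2 fold change -0.19 ± 0.08, edgeR adjusted p = 0.465). The remaining tested neighbours were Kcnq1, Slc22a18, Nap1l4 and Cars, with log2 fold changes of 0.31 ± 0.21, 0.44 ± 0.48, -0.03 ± 0.05 and 0.11 ± 0.09.

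The cell cycle genes read beside Cdkn1c, 13 of 14 tested, held no gene that passed in edgeR or DESeq2, with 3 higher and 0 lower at an unadjusted p under 0.05 (all genes, 5.23% and 5.78%). These were the proliferation marker Mki67 (20.7 ± 1.1 CPM in WT and 28.7 ± 7.8 CPM in ADCY3∆AT, edgeR adjusted p = 0.362), the p27 gene Cdkn1b (19.5 ± 1.9 and 22.2 ± 0.6 CPM, 0.436) and the kinase Cdk6 (30.1 ± 4.6 and 36.03 ± 2.7 CPM, 0.443). The list median was 0.13 on the log2 scale.

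Nnat, a small membrane protein of the endoplasmic reticulum (chromosome 2, 157560078 to 157562522, plus strand), varied widely in both groups. It had 6.73, 8.12 and 13.8 CPM in WT and 17.9, 14.3 and 7.50 CPM in ADCY3∆AT. ADCY3∆AT replicates 1 and 2 lay above all WT libraries and replicate 3 among them, and the log2 fold change was 0.48 ± 0.34 (SE, 95% interval -0.30 to 1.26, edgeR adjusted p = 0.651). Nnat lies inside the imprinted gene Blcap, on the opposite strand with no shared exonic base, and Blcap had 39.5 to 41.4 CPM in WT and 40.4 to 46.9 CPM in ADCY3∆AT. Ctnnbl1, next to them, had a log2 fold change of -0.02 ± 0.07.

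**Figure D3:**
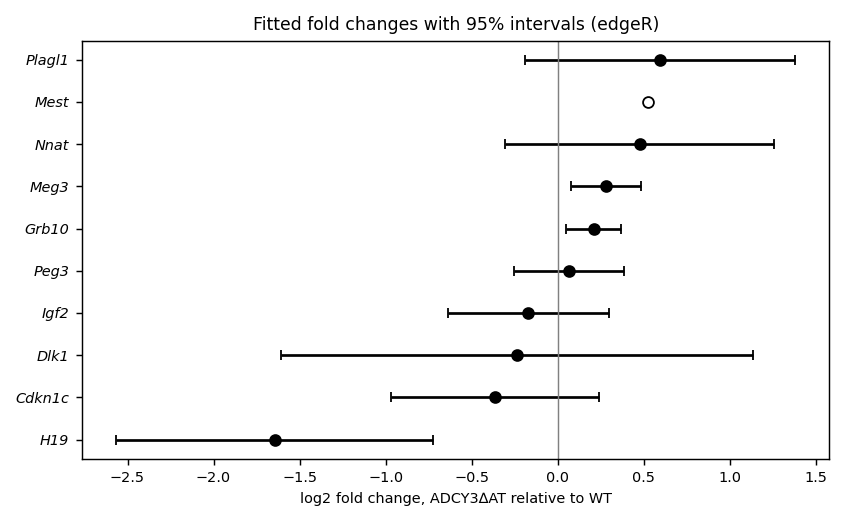
Points are the log2 fold changes of ADCY3∆AT relative to WT fitted by edgeR, with bars for the 95% interval. Mest is an open point with no interval because it was chosen by this difference, and the intervals of H19, Meg3 and Grb10 lie on one side of 0 while their adjusted p-values, from 0.226 to 0.339, did not pass.

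In ADCY3∆AT replicate 3, in which Nnat was low, some genes of lipid storage, singled out after their values were seen, were also unlike replicates 1 and 2. Leptin, Lep, the hormone of filled fat cells, had 5.67, 4.50 and 9.50 CPM in WT and 22.9, 17.4 and 2.30 CPM in ADCY3∆AT, and Fasn, fatty acid synthase, had 1736, 1410 and 1832 CPM in WT and 5303, 4080 and 1661 CPM in ADCY3∆AT. Scd1 and Sncg of the same list split likewise. Scd1 had 4044, 2050 and 3290 CPM in WT and 7235, 6369 and 3107 CPM in ADCY3∆AT, and Sncg had 9.85, 6.82 and 9.84 CPM in WT and 15.4, 15.1 and 6.08 CPM in ADCY3∆AT. Not every gene of the list did so, and the lipid droplet protein Plin2 had 1273, 1340 and 1355 CPM in ADCY3∆AT. Mest did not do so either, since its highest level was in replicate 3. The list of fat expansion and lipid storage genes, 13 tested, held none that passed in edgeR or DESeq2, with 3 higher and 2 lower at an unadjusted p under 0.05 (all genes, 5.23% and 5.78%). The lowest p-values were those of Slc2a4, the insulin-responsive glucose transporter (283.4 ± 16.5 CPM in WT and 239.5 ± 13.2 CPM in ADCY3∆AT, edgeR adjusted p = 0.252), Cavin1 of caveolae (243.9 ± 8.8 and 287.5 ± 21.3 CPM, 0.271) and Fasn (0.31). Sfrp5, a secreted Wnt inhibitor that is raised together with Mest in expanding white fat, had 0.73 to 1.116 CPM in WT and 0.45 to 0.94 CPM in ADCY3∆AT.

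Levels of different genes were compared only per kilobase of merged exons, which understates genes whose isoforms use few of the annotated exons. Genes were ordered by their mean over all 6 libraries. On this scale Cdkn1c was the highest, with 18.1 ± 8.0 CPM per kb in WT and 14.1 ± 1.8 in ADCY3∆AT (SD, n = 3 each). Peg3 followed with 9.11 ± 2.07 and 9.55 ± 0.55, and its range over the 6 libraries stayed below that of Cdkn1c. Nnat (5.22 ± 2.04 and 7.24 ± 2.89), Grb10 (3.16 ± 0.03 and 3.66 ± 0.32) and H19 (4.00 ± 1.51 and 1.28 ± 0.67) came next. The place of H19 differed by genotype, above the Grb10 mean in WT and below the Mest level in each ADCY3∆AT library. In this order the ranges of Peg3 and Nnat, Nnat and Grb10, Grb10 and H19, and H19 and Mest overlapped. Mest, at 1.31 ± 0.13 and 1.88 ± 0.17 CPM per kb, lay apart from the next gene, Meg3 (0.480 ± 0.038 and 0.582 ± 0.028). Igf2 at 0.400 ± 0.048 and 0.356 ± 0.077 overlapped with Meg3 and lay apart from Plagl1 (0.099 ± 0.039 and 0.149 ± 0.046), and Dlk1 was lowest at 0.093 ± 0.076 and 0.078 ± 0.032. The 20-week brown fat held the growth inhibitor transcripts Cdkn1c and Grb10 at higher levels per length than Igf2 or Dlk1 in each of the 6 libraries.

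A wider list of 51 other imprinted genes was read to see whether the 10 stood within a general shift. It matched 50 rows, of which 40 were tested, 22 with a positive and 18 with a negative fold change. None passed in edgeR or DESeq2, and 3 were higher and 2 lower at an unadjusted p under 0.05 (all genes, 5.23% and 5.78%). Groups that did not overlap were likewise found for 3 higher and 2 lower genes (all genes, 7.73% and 8.78%). The median log2 fold change was 0.06. Genes read from the paternal copy (19 tested) had a median of -0.05 and those read from the maternal copy (21 tested) a median of 0.08, and the difference between these lists was not tested.

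Among the paternal genes, the amino acid transporter Slc38a4 had 1.19, 0.545 and 0.818 CPM in WT and 0.286, 0.447 and 0.538 CPM in ADCY3∆AT, which did not overlap (log2 fold change -1.004 ± 0.37, edgeR adjusted p = 0.386). Slc38a4 is also a transporter of skeletal muscle, whose markers were lower in the same libraries, and its part was not tested. Zdbf2 had 0.779 ± 0.385 and 1.32 ± 0.29 CPM (0.74 ± 0.35, edgeR adjusted p = 0.499). Among the maternal genes, beside Zim1 and Rian, the calcium-activated chloride channel Ano1 had 47.1 ± 1.5 and 55.3 ± 5.8 CPM without overlap (0.23 ± 0.08, edgeR adjusted p = 0.337). Mrpl23, the ribosomal protein gene beyond H19, had a log2 fold change of 0.25 ± 0.18.

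**Figure D4:**
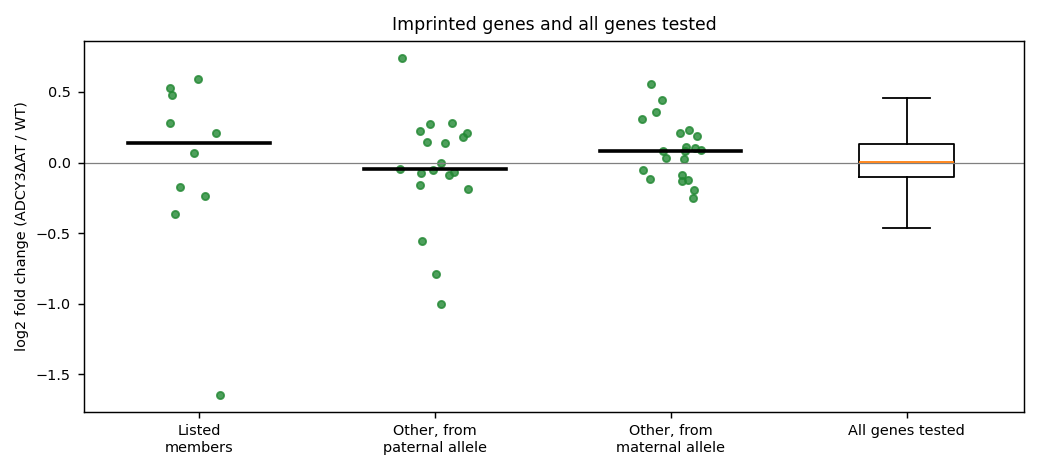
Points are log2 fold changes of single genes in the 10 listed imprinted genes and in the other imprinted genes by parental copy, with black lines at the medians (0.14 with Mest and 0.07 without it, -0.05, and 0.08). The box shows all 18114 genes tested, with quartiles and whiskers at percentiles 5 and 95, and of the 10 listed genes Mest (0.53), Plagl1 (0.59), Nnat (0.48) and H19 (-1.64) lie outside its whiskers.

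The genes whose levels ran most like Mest over the 6 libraries were ranked by Pearson correlation of log2 CPM among 8051 other genes with a mean of at least 10 CPM. Because Mest was chosen for its difference between the groups, genes that share this difference rank high, and the correlations are descriptions of 6 libraries. The 5 most positive were Rsf1, a chromatin remodelling subunit (r = 0.984), Tmem140 (0.980), Ankhd1 (0.978), Apln, the peptide ligand of the apelin receptor (0.976), and Rmc1 (0.976). Apln had 10.5, 9.18 and 10.01 CPM in WT and 13.0, 13.7 and 15.5 CPM in ADCY3∆AT, with replicate 3 highest as for Mest (log2 fold change 0.50). Rsf1 moved over a narrower range, from 26.7 to 27.9 CPM in WT and from 30.2 to 31.9 CPM in ADCY3∆AT.

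The 5 most negative were Lurap1 (r = -0.998), the tyrosine phosphatase Ptpn4 (-0.990), Pdss1 of coenzyme Q synthesis (-0.988), Tmem263 (-0.984) and the small GTPase Rab8a (-0.983). Lurap1 had 79.6, 88.2 and 89.9 CPM in WT and 69.6, 71.4 and 64.9 CPM in ADCY3∆AT, so that its lowest library was the one in which Mest was highest. Both sets were picked from 8051 genes as the extremes in these same libraries, so their closeness to Mest is set by that choice.

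**Figure D5:**
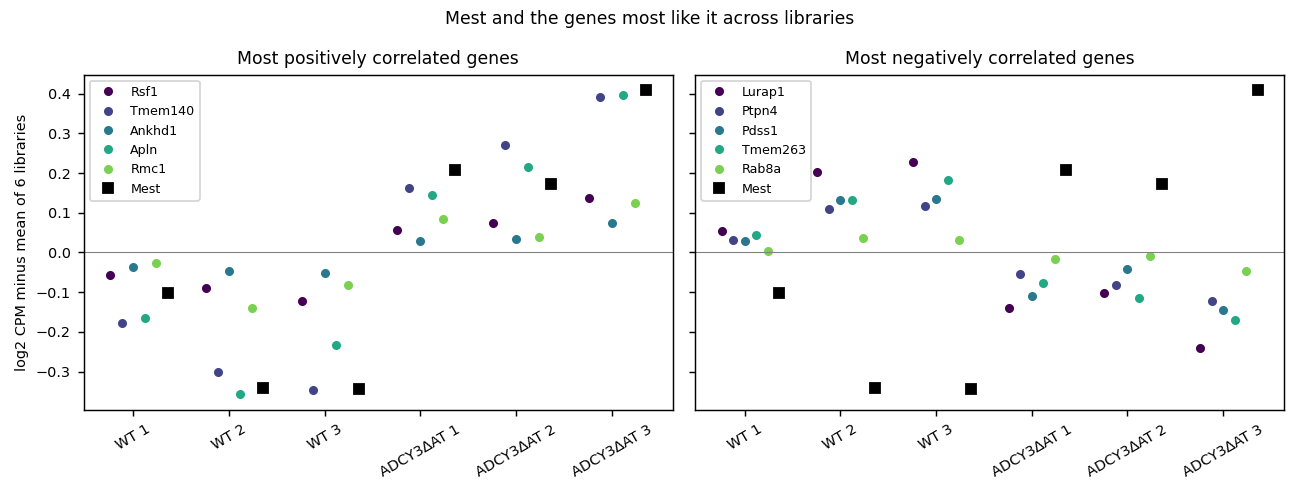
The vertical axis is log2 CPM minus the mean of the 6 libraries, for Mest (black squares) and the 5 genes most positively (left) and most negatively (right) correlated with it. The left-hand genes lie on the same side of 0 as Mest in every library and the right-hand genes on the other side, a pattern set by how they were chosen.

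Markers of other cell types were read beside Mest. The 11 markers of preadipocytes and fibroblasts summed to 435.9, 367.3 and 442 CPM in WT and 430.8, 462.7 and 506.1 CPM in ADCY3∆AT, which overlapped, and none of them was at 0 in any library. Macrophage markers, 8 in all, summed to 103.1 to 162.8 CPM in WT and 116.7 to 175.1 CPM in ADCY3∆AT, with overlap. The endothelial and muscle sums given above were the ones whose groups did not overlap among those of brown adipocyte, muscle, fibroblast, endothelial, smooth muscle, macrophage, Schwann and white adipocyte markers. The endothelial sums nearly met, at 1041 CPM in the highest WT and 1053 CPM in the lowest ADCY3∆AT library. Kdr, whose groups overlapped, made up 410.1 to 443.5 CPM of the endothelial sum in WT and 387.6 to 455.5 CPM in ADCY3∆AT. The sum therefore understates the difference of the other markers. Of the 8 endothelial markers, 5 were higher and 0 lower without overlap (all genes, 7.73% and 8.78%). None passed in edgeR, and 1 passed as higher in DESeq2, which called 0.462% of all genes higher. Fold changes were positive for 6 of the 8 and negative for 2, beside 50.9% positive among all genes. The part of the endothelial and muscle transcripts in the Mest difference was not tested.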

How the data were processed

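Total RNA of brown fat was sequenced as paired-end libraries. The authors deposited an estimated count for each Ensembl gene without normalisation, and 31.6% of these values have decimals. The submitters' processing notes list GRCm38 with Salmon, StringTie and edgeR, and give no version or role. Symbols, positions and merged exons came from GENCODE M21, which matched 54131 of 54385 rows. Column headers were matched to sample descriptions, and 0 value columns stayed unmapped.

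Counts were rounded, genes kept with filterByExpr (18114), and libraries scaled with TMM. Genotype alone was fitted and tested by quasi-likelihood in edgeR 4.0.16 (R 4.3.3), and p-values were adjusted by Benjamini-Hochberg over all genes tested, threshold 0.05. Each SE was derived as the fold change over the root of F. CPM are TMM-scaled, and log2 CPM used a prior count of 2. DESeq2 1.42.0 and limma 3.58.1 (voom) were alternatives, with other scalings and filters, robust estimation, a replicate block and each library left out. Every pair of the 6 libraries differed by more than sampling noise (chi-square per degree of freedom 22.3 to 65.6). The edgeR step was tested on simulated data. Intervals and the 3-count floor cover counting or replicate error only.

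The members and lists were chosen with earlier results of these data known. Named are the 10 members, Adcy3, their listed neighbours that were tested, the 3 lowest p-values of each list, and the 5 genes most and least correlated with Mest at a mean of at least 10 CPM. The unannotated row, Mir335, Rtl1, Dio3, Grb14, Igf1r, Igf2r, Mirg, Lep, Scd1, Sncg, Plin2, Sfrp5, Mb, Ckm, Kdr and Elovl3 were singled out after their values were seen.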

Additional observations from a re-analysis of the deposited data

How the results depend on the processing

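The count of genes called over the whole table depended on the tool and the filter. Against 0 higher and 1 lower in edgeR, DESeq2 called 89 higher and 142 lower, limma voom 1 higher, robust estimation 2 lower, and edgeR without a low-count filter 59 higher and 155 lower. Leaving out each library in turn gave from 0 to 27 higher and from 1 to 39 lower, with the highest of both without ADCY3∆AT replicate 3. Among the other imprinted genes, 0 were called in either direction under every alternative run on them. Igf2, H19, Meg3, Plagl1, Grb10 and Nnat kept their sign in all 15 alternatives. Dlk1 kept its sign in 12 of 14, since it was too scarce for the filter of 1 CPM in 3 libraries. Mest also kept its sign in all 15, but it was chosen for its rise in these same libraries, so this is no support for the rise. Dlk1 turned to 0.0598 in limma voom and to 0.65 without WT replicate 3, and without WT replicate 2 Peg3 turned to -0.0497 and Cdkn1c to 0.0483. With single libraries left out, Dlk1 ranged from -0.6619 to 0.65, Peg3 from -0.0497 to 0.268 and Cdkn1c from -0.5828 to 0.0483. Of the members other than Mest, H19 alone was called in 1 alternative, with no low-count filter. The cause of these changes was not tested. The Nnat fold change went from 0.20 without ADCY3∆AT replicate 1 to 0.84 without WT replicate 3, and Plagl1 from 0.32 to 0.95 without the same libraries. Igf2 went from -0.3355 without ADCY3∆AT replicate 3 to -0.0258 without replicate 1. Dlk1 had the fewest counts of the members, 10 to 46 per library. With the replicate number as a block, 3 genes were called lower and no member was called. No label says that the numbers pair the libraries. Same-numbered deviations had correlations of -0.0857, -0.128 and -0.0864, and 0 WT libraries correlated best with their own number. These values showed no pairing, but 3 libraries per group are too few to exclude it.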
